A study of Mus musculus with 18 samples.

Results

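Genes with more than 1 active start of transcription, as candidates for alternative promoters, were followed through blood cell differentiation. Whether the starts of a gene are separate promoters was not tested. The expression table gives a value for each transcription start site (TSS) of a gene, and 304 genes were selected because at least 2 of their TSS rows each reached 5 FPKM (fragments normalized for transcript length and for the number of aligned reads) in at least 1 of 5 stages. They make up 21.0% of the 1445 genes with 2 or more TSS rows, in a table of 20310 genes. The 304 genes have 705 TSS rows, of which 635 reached 5 FPKM and are called active here. Of the genes, 283 have 2 active rows and 21 have 3 or more, up to 6 in *Plec*. All genes were thus chosen by the same FPKM values that are described below, so that the counts are descriptions and no p-value is given for them.

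RNA-seq was performed on 10 samples of cells of strain 129 differentiated from a mouse embryonic stem cell (ESC) line with a *Brachyury* (Bry) GFP reporter, 2 replicates per stage, all from this 1 line. The stages were ESC, grown on fibroblast feeders, mesoderm (MES, Bry+/Flk1-), hemangioblast (HB, Bry+/Flk1+), hematopoietic progenitors (HP, CD41+) and macrophages (MAC, CD11b+). A further 8 single libraries came from mouse embryonic fibroblasts (MEFs) of strain 129 taken at embryonic day 14.5, either untreated (uFIB) or given Scl/Lmo2 (SL), Scl/Fli1/Gata2/Lmo2 (SFGL) or Fli1/Gata2/Lmo2 (FGL), at day 12 and day 21. The MEFs were wild type or carried iTal1-2A-GFP with rtTA and TRE-TAL1 cassettes, which express TAL1 with doxycycline, and the labels do not tie these genotypes to single libraries. HE was not analysed here. In the table of stages the authors' values combine the replicates, so that each stage has 1 value without an error, depth is unknown and no difference between stages could be tested. The labels were checked against marker genes: 5 ESC markers summed to 638 FPKM in ESC and to 0.189 FPKM in MAC, the sum of 4 MES markers peaked in MES at 299 FPKM, that of 4 HB markers in HB at 201 FPKM, that of 4 HP markers in HP at 142 FPKM and that of 4 MAC markers in MAC at 4994 FPKM. Single markers went another way: *Mixl1* was at 46.9 FPKM in MES and 80.4 FPKM in HB, *Eomes* at 34.9 and 55.0 FPKM, and *Tal1*, an HB marker, at 19.9 FPKM in HB and 57.3 FPKM in HP. Of other cells, 4 red cell genes summed to 6800 FPKM in HP and to 53.9 FPKM in ESC against 1.15 to 21.8 FPKM elsewhere, 4 endothelial genes to 63.3 FPKM and 5 cardiac and fibroblast genes to 54.8 FPKM in HP. The total over all genes was 381686 FPKM in MAC and 180554 to 201844 FPKM in the other stages, and 444 of the 635 active rows reached 5 FPKM in MAC against 315 to 341 in each other stage.

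A gene with alternative promoters starts its transcripts at more than 1 place. The choice of start can give a protein another first exon and thus another N terminus, or leave the protein the same and place the gene under other transcription factors, other methylation or another translation leader. In blood cells the best known cases include genes at which a proximal and a distal promoter serve different stages. The share of a TSS row, used throughout, is its FPKM as a percent of the FPKM sum over all rows of the gene at that stage, and the main TSS is the row with the largest share. All rows of a gene carry the same locus in the table, so that a row could not be assigned to a position in the genome and is named by its identifier only.

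To show how unlike the start regions of 1 gene can be, bases upstream of RefSeq start sites (GRCm38.p6, the build of the files) are given 5′ to 3′ for *Cdkn2a*, *Dnmt3a*, *Jmjd1c* and *Sp3*, each of which changed its main TSS. The stretches lie outside annotated exons, and capitals mark GAGGAA on either strand, letters at the core of sites for ETS factors such as PU.1. No TATA box core (TATAAA) occurs in them, nor a GATA site written as AGATAA or a RUNX site written as TGTGGT.
Cdkn2a, upstream start, chr4:89294654-89294743, minus strand: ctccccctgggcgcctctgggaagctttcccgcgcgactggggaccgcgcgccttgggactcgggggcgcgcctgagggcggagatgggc
Cdkn2a, downstream start, chr4:89282193-89282282, minus strand: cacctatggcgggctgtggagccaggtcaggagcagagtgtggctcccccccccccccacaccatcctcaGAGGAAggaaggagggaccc
Dnmt3a, most upstream start, chr12:3806890-3806979, plus strand: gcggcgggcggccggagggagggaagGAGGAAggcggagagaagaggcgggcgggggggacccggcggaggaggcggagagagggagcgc
Dnmt3a, most downstream start, chr12:3891638-3891727, plus strand: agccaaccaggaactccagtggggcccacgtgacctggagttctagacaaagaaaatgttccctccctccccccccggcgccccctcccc
Jmjd1c, upstream start, chr10:67126998-67127087, plus strand: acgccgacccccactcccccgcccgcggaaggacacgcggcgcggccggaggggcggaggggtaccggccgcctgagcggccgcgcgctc
Jmjd1c, downstream start, chr10:67185658-67185747, plus strand: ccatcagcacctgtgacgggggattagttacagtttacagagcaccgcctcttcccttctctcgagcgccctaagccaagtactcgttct
Sp3, upstream start, chr2:72980447-72980536, minus strand: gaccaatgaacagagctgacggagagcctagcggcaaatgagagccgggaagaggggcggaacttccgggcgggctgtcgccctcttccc
Sp3, downstream start, chr2:72979287-72979376, minus strand: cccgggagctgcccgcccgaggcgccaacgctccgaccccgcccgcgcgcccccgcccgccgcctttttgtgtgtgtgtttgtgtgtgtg
In *Cdkn2a* the stretch at the upstream start holds 11 CG dinucleotides and the one at the downstream start 1. The counts were 11 and 3 in *Dnmt3a*, 17 and 5 in *Jmjd1c*, and 7 and 13 in *Sp3*. Among the genes printed, the downstream start thus holds more of them in *Sp3* and the upstream start in the others. In *Tsc22d3*, not printed, the counts were 2, 0 and 7 from upstream to downstream. From 250 bases before to 50 after each start, the ratio of observed to expected CG was 1.04 and 0.442 in *Cdkn2a* and 0.964 and 0.468 in *Dnmt3a*. The starts were less unlike in *Jmjd1c* (1.03 and 0.742) and *Sp3* (0.870 and 0.977).

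The main TSS differed between at least 1 pair of stages in 104 of the 276 members that could be compared, or 37.7%. A change was counted where the main TSS of the stages differed, the gene sum was at least 5 FPKM in both and the share of either main TSS moved by at least 20 percentage points. Over all genes with 2 or more TSS rows, which include the members, the percent called was 20.5 (129 of 628). Since members were chosen for a second row of at least 5 FPKM, nothing is read from the gap between these values. The other 28 members reached 5 FPKM in 1 stage only, MAC in 26 of them, and could not be compared. Without ESC the count was 66 of 270 members, and without MAC 71 of 250.

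The fewest changes lay between MES and HB, where 5 of 228 members changed main TSS against 1.53% over all genes with 2 or more rows. This count depended on the limits, with 25 members where no minimum move was asked for and 2 with a move of 40 points or a gene sum of 10 FPKM, but it was the lowest of the 4 transitions under each of these settings. From ESC to MES 35 of 218 members changed (9.37% over all such genes), from HB to HP 16 of 216 (4.42%) and from HP to MAC 35 of 217 (8.52%). Across the whole path, from ESC to MAC, 57 of 197 members had another main TSS (16.2% over all such genes). Of the 170 members at 5 FPKM or more in all 5 stages, 97 kept the same main TSS throughout, 67 changed and the rest differed by less than the limit. In 18 of these 67 ESC alone differed from the other stages and in 15 MAC alone did, against 5 for HP, 2 for HB and 1 for MES. The other 26 followed several patterns, in 5 of them with 1 main TSS in ESC, MES and HB and another in HP and MAC. Patterns over all 5 stages were counted in members only. No share over all genes with 2 or more rows stands beside them, and nothing particular to the members is read from them. The ESC samples are numbered apart from those of the other stages, and the labels name no batch. For changes between ESC and a later stage, stage and a possible batch therefore cannot be told apart.

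**Figure D1:**
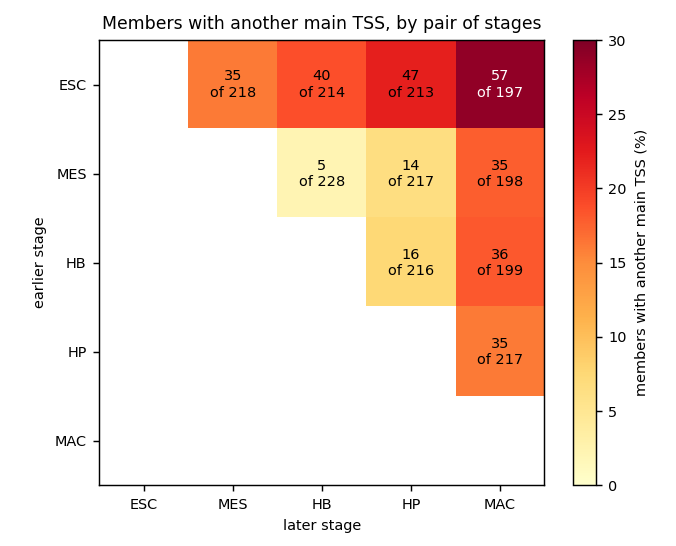
Members whose main TSS differed between an earlier stage (vertical axis) and a later stage (horizontal axis); each square gives the number changed of the number compared, and its colour the percent. MES and HB differ least, with 5 of 228 members, and ESC and MAC most, with 57 of 197.

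Shares moved over the full range. Among the 276 members compared, the largest move of a row's share between stages had a median of 26.9 percentage points (quartiles 14.8 and 42.9), and it was under 10 points in 38 members and at least 50 points in 50. Members were chosen for the level of a second row, and these moves were summarised in members only. Nothing particular to the members is read from their size.

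**Figure D2:**
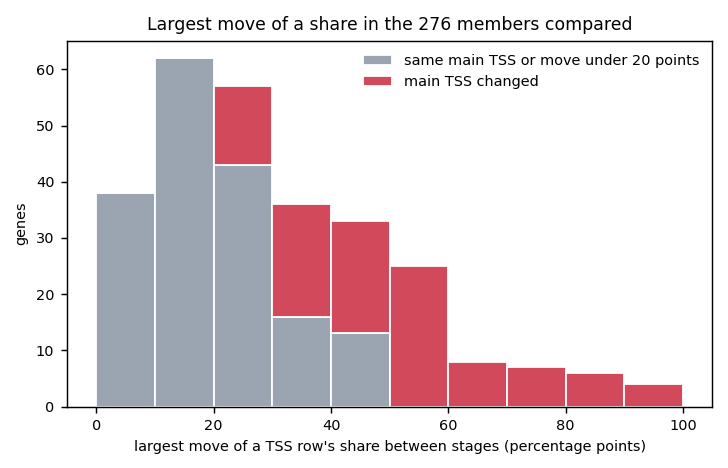
Number of genes (vertical axis) by the largest move of a TSS row's share between stages with a gene sum of at least 5 FPKM (horizontal axis, percentage points) for the 276 members compared; red parts of the bars are members that changed main TSS and grey parts the others. Every member with a move of 50 points or more changed main TSS, and members between 20 and 50 points are mixed. In a gene with 2 rows, a move of more than 50 points changes the main TSS by definition.

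The changes did not all come about in the same way. From HP to MAC, 18 of the 35 members that changed had a new main row at least 2-fold higher on log2(FPKM + 1) in MAC while the old one was not 2-fold lower, 7 had only an old row that was 2-fold lower, 7 had both and 3 had neither. With stages scaled to the same upper quartile of the TSS rows these numbers were 10, 9, 10 and 6, so that the excess of higher new rows in MAC depended on the scaling. From ESC to MES the order was the other way: in 13 of 35 only the old main row was 2-fold lower, in 7 only the new one was higher, in 8 both held and in 7 neither. Of the 16 members that changed from HB to HP, 6 had only a higher new row, 4 only a lower old row, 5 both and 1 neither, and the 5 from MES to HB were spread over all 4 kinds. These kinds were counted in members only, without the same shares over all genes with 2 or more rows. Nothing particular to the members is read from them.

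**Figure D3:**
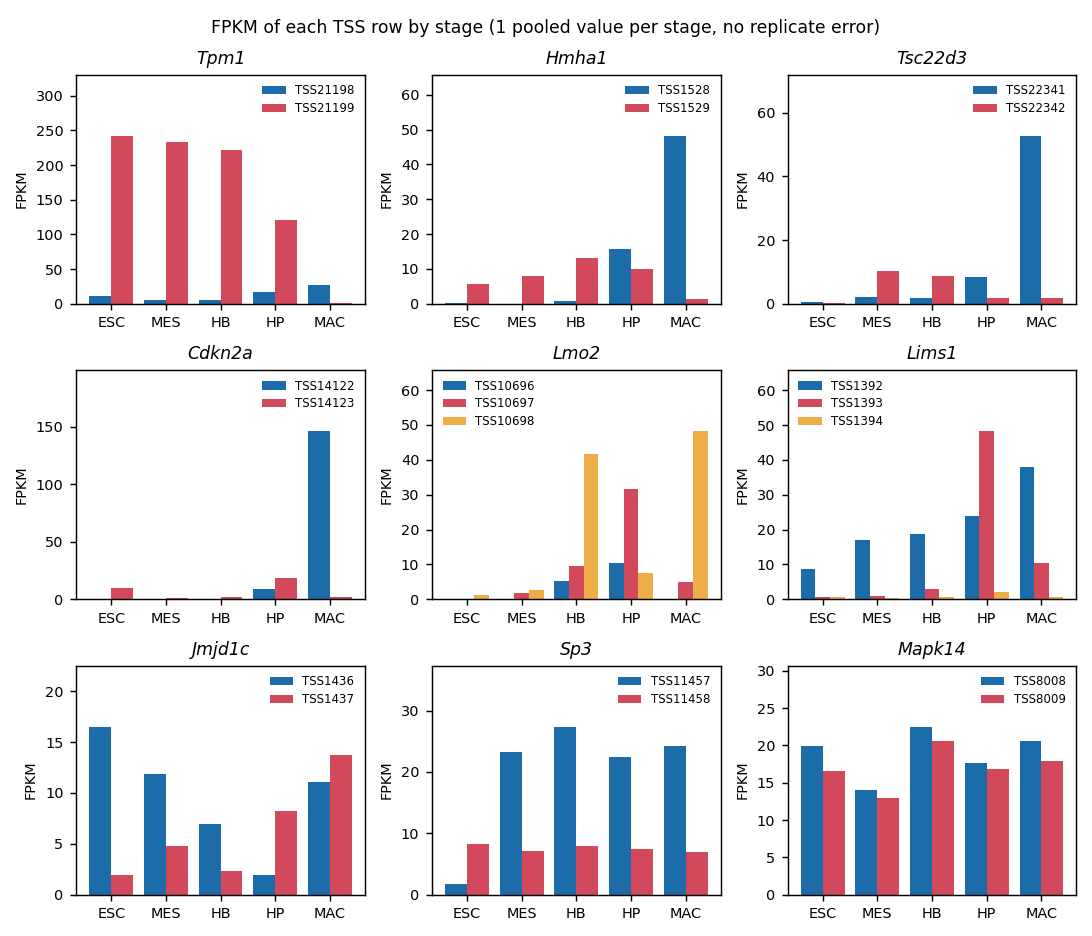
FPKM (vertical axis) of every TSS row of 9 genes in the 5 stages (horizontal axis), 1 bar per row and stage, each the authors' pooled value with no error bar. *Tpm1*, *Hmha1*, *Tsc22d3* and *Cdkn2a* end on another row in MAC than in the early stages, *Lmo2* and *Lims1* differ in HP, *Jmjd1c* differs in HP and MAC, *Sp3* differs in ESC, and *Mapk14* keeps both rows near equal.

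Genes of the cytoskeleton and of adhesion included *Tpm1* and *Lima1*, which were among the 12 members with the largest moves. Of a list of 32 such genes 31 were in the table, 9 had 2 or more rows and 4 were members. These were *Tpm1*, *Lima1*, *Plec* and *Sept9*, all of which changed main TSS, against 37.7% of all members compared (104 of 276). With so few members in a list, no contrast between lists is drawn. *Tpm1* (chr9:67022593-67049213) encodes a tropomyosin that stabilises actin filaments, and its alternative promoters give long and short forms. Its row TSS21199 stood at 242, 234, 221, 120.0 and 1.48 FPKM in ESC, MES, HB, HP and MAC, and TSS21198 at 11.0, 5.37, 5.72, 16.2 and 26.7 FPKM. TSS21199 thus held 88.1% to 97.8% of the sum up to HP and 5.25% in MAC, where it was far lower while the other row was at its highest. *Lima1*, which encodes the actin-bundling protein EPLIN, moved step by step: TSS7064 held 96.4%, 87.6%, 54.9%, 23.5% and 8.36% from ESC to MAC. TSS7064 was at 12.9 FPKM in ESC and 1.51 FPKM in MAC, and TSS7063 at 0.481 and 16.5 FPKM, so that *Lima1* was lowest in HB, where both rows were under 2 FPKM and the sum was too low for a comparison.

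*Sept9*, a septin of the cell cortex and of cytokinesis, had 4 active rows. TSS3062 led in ESC with 10.5 FPKM (55.5%), and TSS3061 led from MES on with 37.0% to 67.4%, at 8.84, 18.4, 21.5 and 86.1 FPKM in MES, HB, HP and MAC. *Plec*, which encodes the cytoskeletal linker plectin and is known for its many first exons, had 11 rows, 6 of them active. TSS6827 held 51.1% to 58.8% in the first 4 stages and 15.5% in MAC. Its own level was 12.1 FPKM there, close to the 11.4 FPKM of HP, whereas TSS6836 (24.5 FPKM), TSS6832 (13.6 FPKM) and TSS6830 (10.7 FPKM) were each at 3.67 FPKM or less in all earlier stages. In MAC, *Plec* was therefore spread over several rows, with none above 31.6%.

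*Hmha1* and *Fhl1* were named for the size of their moves and are outside that list. *Hmha1*, which encodes a GTPase-activating protein of blood cells, changed from HB to HP. TSS1529 was at 5.80, 7.89, 13.0, 9.99 and 1.27 FPKM from ESC to MAC, and TSS1528 at 0.0853, 0.0380, 0.729, 15.7 and 48.2 FPKM. TSS1529 thus held 94.7% in HB, and TSS1528 held 61.2% in HP and 97.4% in MAC. *Fhl1*, a LIM domain protein of muscle and adhesion sites, had TSS21645 at 7.35 FPKM (66.4%) in ESC, listed at 0 in MES, HB and MAC, and TSS21643 at 9.48, 8.06 and 14.0 FPKM in MES, HB and HP.

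Of the regulators of blood and endothelium, 34 were listed, 31 were in the table and 5 had 2 or more rows. *Lmo2* and *Ldb1*, whose proteins are the bridge and the scaffold of the complex that TAL1 and GATA factors form on DNA, were members, and both changed main TSS. *Runx1*, *Gfi1* and *Mitf* have 2 or more rows but did not meet the limit on both. *Lmo2* (chr2:103957995-103981878) had 3 active rows. TSS10698 stood at 41.7 FPKM in HB, 7.49 FPKM in HP and 48.2 FPKM in MAC, whereas TSS10697 stood at 9.66, 31.5 and 4.88 FPKM. The third row, TSS10696, was at 5.12 FPKM in HB and 10.4 FPKM in HP and was listed at 0 in MAC. TSS10698 therefore held 73.8% in HB, 15.2% in HP and 90.8% in MAC, with TSS10697 leading in HP at 63.9%. In ESC and MES the gene sum was under 5 FPKM. *Ldb1* followed the same order with smaller moves: TSS10166 was at 42.6, 10.5, 17.6, 16.0 and 28.4 FPKM and TSS10165 at 5.46, 5.81, 8.10, 16.8 and 2.53 FPKM. In HP the rows were near equal, with TSS10165 at 51.1%, and in MAC TSS10166 held 91.8%. The 4 red cell genes summed to 6800 FPKM in HP and 21.8 FPKM in MAC; their part in these HP values was not tested.

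*Lims1* was added after the values were seen, as a member whose main TSS in HP differed from that of every other stage. The gene encodes the focal adhesion adaptor PINCH1 and had TSS1393 at 0.698, 1.07, 2.91, 48.2 and 10.3 FPKM and TSS1392 at 8.72, 17.1, 18.8, 23.8 and 38.1 FPKM. In HP TSS1393 held 65.0%, against 5.72% to 21.0% elsewhere. In total 19 of the 276 members compared left a main TSS and later returned to it. Returns were counted in members only, so that nothing is read from their number. In 6 of them the stage in between was HP only, in 11 it was MES or HB, and in 2 it was HP and another stage.

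**Figure D4:**
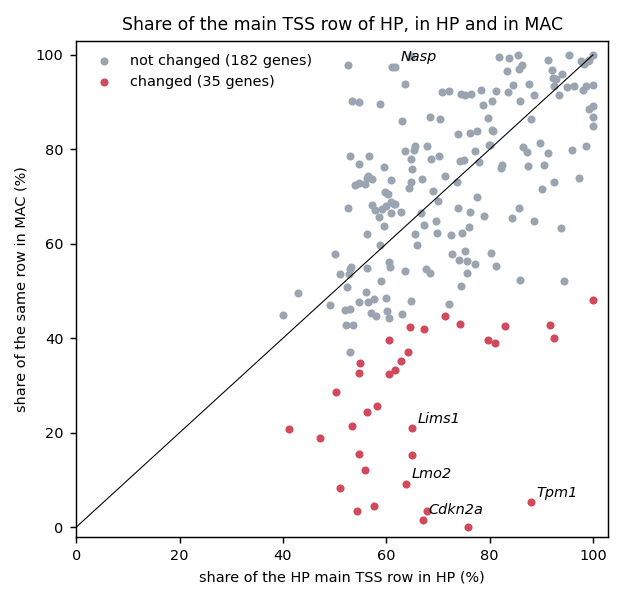
For the 217 members compared between HP and MAC, the share of the HP main row in HP (horizontal axis, percent) against its share in MAC (vertical axis, percent); red points changed main TSS and grey points did not, and the line marks equal shares. *Tpm1*, *Cdkn2a* and *Lmo2* lie near the bottom, with 5.25%, 1.57% and 9.19% in MAC.

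The next genes were likewise named for the size of their moves, so that no theme is drawn from them. *Cdkn2a* (chr4:89274473-89294619) encodes 2 unrelated inhibitors of the cell cycle from alternative first exons, ARF from the upstream start and INK4A from the downstream one, both printed above. TSS14123 stood at 9.48, 1.18, 2.26, 18.2 and 2.34 FPKM and TSS14122 at 0.168, 0.267, 0.180, 8.94 and 146 FPKM. The share of TSS14122 was 1.74% in ESC, 32.9% in HP and 98.4% in MAC. Which row is which start could not be told from the table. *Sp3* encodes a ubiquitous zinc finger factor of GC boxes and changed once: TSS11457 was at 1.81 FPKM in ESC and at 22.4 to 27.3 FPKM in all later stages, while TSS11458 stayed between 6.94 and 8.26 FPKM. *Jmjd1c*, of the JMJD1 family of histone demethylases, had TSS1436 at 16.5, 11.8, 6.96, 1.90 and 11.1 FPKM and TSS1437 at 1.93, 4.74, 2.37, 8.25 and 13.7 FPKM. TSS1437 held 81.2% in HP and 55.2% in MAC against 10.5% to 28.6% before.

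*Tsc22d3*, the glucocorticoid-induced leucine zipper gene, was under 5 FPKM in ESC. From MES on TSS22342 was at 10.1, 8.66, 1.69 and 1.86 FPKM and TSS22341 at 2.22, 1.81, 8.49 and 52.7 FPKM. The main TSS thus changed between HB and HP, with TSS22341 at 17.3% and 83.4%, and this row was highest in MAC. *Nasp* encodes a histone chaperone that supplies H1 and H3-H4 in dividing cells. TSS14208 was at 45.4, 85.3, 92.6, 24.5 and 0.326 FPKM and TSS14207 at 7.63, 34.3, 37.3, 39.6 and 12.7 FPKM, so that TSS14208 went from 85.6% in ESC to 2.51% in MAC.

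Of 27 genes of chromatin and DNA methylation 24 were in the table, 7 had 2 or more rows and 4 were members. *Dnmt3a* and *Kdm2b* changed main TSS and *Bcor* and *Ncor1* did not. *Dnmt3a* (chr12:3806980-3914443), a de novo DNA methyltransferase, is known for a long form from its upstream starts and a short form, prominent in ESC, from a start inside the gene. TSS3992 was at 10.1, 7.24, 7.93, 7.03 and 26.0 FPKM and TSS3991 at 2.23, 4.82, 3.26, 4.14 and 54.5 FPKM. TSS3992 held 77.7% in ESC and 32.3% in MAC, where TSS3991 held 67.7%, and both rows were highest in MAC. *Kdm2b*, a CpG island-binding histone demethylase, was led by TSS15670 at 14.3 FPKM (68.4%) in MES. Its main row in HP, TSS15668 at 4.96 FPKM (46.3%), lay just under the limit for an active row, so that the change in *Kdm2b* leads to a row not counted as active. *Ncor1*, a co-repressor of nuclear receptors, stayed even: TSS3380 held 77.4% to 79.9% in all stages.

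*Cnot7*, *Eif4enif1*, *Tsen34* and *Fbxo6* were also among the 12 members with the largest moves. *Cnot7*, a deadenylase of the CCR4-NOT complex, was led by TSS19845 in ESC (60.6%), by TSS19846 in MES (58.7%) and HB (75.8%) and again by TSS19845 in HP (52.7%) and MAC (97.8%). TSS19846 was at 8.83, 20.3, 30.4, 13.1 and 0.558 FPKM, and TSS19845 at 9.72 to 24.6 FPKM throughout. *Eif4enif1*, whose protein carries the cap-binding factor eIF4E, had 3 active rows. TSS2282 was at 11.6 FPKM (56.7%) in ESC and at 0 to 1.22 FPKM afterwards, and TSS2284 at 2.94 FPKM in ESC and 9.28, 11.9, 9.87 and 4.13 FPKM later. *Eif4enif1* therefore changed at the first step and kept TSS2284, at 80.1% to 87.5%, from MES to HP. In MAC its sum was 4.65 FPKM, under the limit for a comparison. *Tsen34*, a subunit of the tRNA splicing endonuclease, had TSS17077 at 91.0% in ESC, 53.0% in MES and 23.1% in MAC. *Fbxo6*, the substrate receptor of a ubiquitin ligase for glycoproteins, moved in 1 direction: TSS14497 stood at 0.0901, 1.98, 6.10, 17.0 and 36.3 FPKM and TSS14498 at 9.94, 8.26, 5.93, 4.03 and 6.64 FPKM. In HB the leading rows of *Fbxo6* were within 2 points of each other, at 49.0% and 47.7%. The RefSeq starts of *Fbxo6* span only 210 bases, and those of *Eif4enif1* all lie at chr11:3202353-3203019. Whether the rows of these genes are separate promoters was not tested.

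Imprinted genes with more than 1 active row, also picked after the values were seen, were *Igf2*, *Grb10*, *Mest* and *Gnas*. *Igf2*, the fetal growth factor, had TSS19115 at 8.21 FPKM (87.9%) in ESC and TSS19113 at 0.00471, 10.6, 33.4, 94.6 and 1.55 FPKM from ESC to MAC. TSS19113 held 74.5%, 62.6% and 87.0% in MES, HB and HP. *Mest* was led by TSS15936 in ESC (43.2 FPKM, 71.2%) and by TSS15937 in MES, HB and HP (62.8%, 61.6% and 69.9%). *Gnas*, the stimulatory G protein subunit, moved less, with TSS11125 at 54.2% in ESC and TSS11124 at 54.3% to 63.6% later. *Grb10*, an adaptor that restrains insulin signalling, kept its main row TSS3174, but TSS3173 was at 11.5 FPKM (34.7%) in ESC and at 0.408 FPKM or less in all later stages. By the limits used, the main TSS changed from ESC to MES in *Igf2* and *Mest*, and from ESC to HP in *Gnas*.

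The remaining lists held no change, but each held few members, so that nothing is read from this. Of 34 receptors and signal transducers 30 were in the table, 6 had 2 or more rows and 3 were members, *Syk*, *Mapk14* and *Pik3cd*, none of which changed. *Syk*, a kinase downstream of immune receptors, was at 4.99, 2.78, 1.35, 14.9 and 90.7 FPKM on TSS4869, which held 93.0% to 97.1% in each stage, and the second row reached 6.71 FPKM in MAC only. *Pik3cd*, the leukocyte PI3-kinase subunit, was active on 3 rows in MAC at 15.2, 5.78 and 10.6 FPKM, and TSS14514 led there with 47.1% and in HP with 49.2%. Of 27 genes of metabolism and trafficking 25 were in the table, 6 had 2 or more rows and 4 were members, *Ldha*, *Slc7a7*, *Idh1* and *Snx5*, with no change. In *Ldha*, the lactate dehydrogenase of glycolysis, TSS17519 held 96.3% to 99.0% at 141 to 247 FPKM. *Idh1*, a cytosolic isocitrate dehydrogenase, was at 25.8, 24.3, 30.4, 39.4 and 187 FPKM on TSS789 and at 4.42 to 6.83 FPKM on TSS790, so that its higher level in MAC was on 1 row only. *Snx5*, a sorting nexin of endosomes, was likewise led by TSS11896 in all stages, with 74.5% to 94.9%.

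Some members kept their rows in near-constant proportion. Among the 11 members with a sum of at least 10 FPKM in every stage and every active row at 30% or more, *Mapk14* moved least. This gene, which encodes the p38 alpha kinase of the stress response, had TSS8008 at 19.9, 14.0, 22.5, 17.7 and 20.6 FPKM and TSS8009 at 16.6, 13.0, 20.6, 16.9 and 17.9 FPKM. TSS8008 held 51.1% to 54.6%. *Smarcd2*, a subunit of the SWI/SNF remodelling complex, held 59.8% to 66.0% on TSS3833, and *Orc2*, of the origin recognition complex, 45.3% to 53.5% on TSS754. The 3 members with the highest mean sum were also led by the same row in every stage. *Spp1*, which encodes the secreted phosphoprotein osteopontin, stood at 10852 FPKM on TSS14904 and 451 FPKM on TSS14905 in MAC. *Aldoa*, an aldolase of glycolysis, held 93.4% to 99.3% on TSS18977. *Eif5a*, a translation elongation factor, was shared by TSS3438 at 47.5% to 54.0% and TSS3439 at 32.5% to 43.5%, next to 3 weaker active rows.

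At the limit that chose the genes, the second row of *Trex1* reached 5.09 FPKM and that of *Mtus1* 5.10 FPKM. Just outside were *Elmo2* (4.97 FPKM), *Speg* (4.95 FPKM) and *Gng12* (4.95 FPKM). *Trex1*, a DNA exonuclease that degrades cytosolic DNA, was led by TSS21372 in HP (5.09 FPKM, 67.9%) and by TSS21371 in MAC (70.8 FPKM, 96.5%). *Mtus1*, a microtubule-associated protein, also changed main TSS, with no active row above 5.15 FPKM.

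The total output of the members was compared with that of all genes, with a gene called where its sum differed 2-fold on log2(FPKM + 1) and was at least 5 FPKM in the higher stage. From ESC to MES 47 of 251 members were called (18.7%) against 16.1% of all genes, from MES to HB 15 of 245 (6.12%) against 5.4%, and from HB to HP 57 of 272 (21.0%) against 16.2%. From HP to MAC 179 of 297 members were called (60.3%) against 51.2%. The median difference from HP to MAC on this scale was 0.83 in the members and 0.62 over all genes. Of the 179 members called there, 132 were higher and 47 lower in MAC, so that 73.7% of the calls were higher, against 75.7% of the calls over all genes (3180 higher and 1023 lower). The upper quartile of all genes was itself 0.74 higher in MAC on the log2 scale. With the gene sums of all stages scaled to the same upper quartile 94 members were higher and 70 lower, or 57.3% of the calls higher against 46.9% over all genes. The highest sum lay in MAC in 162 members (53.3%), in ESC in 55 (18.1%), in HB in 46 (15.1%), in HP in 29 (9.54%) and in MES in 12 (3.95%). Of the 9135 genes that reached 5 FPKM in some stage, 51.6% were highest in MAC. The shares of these genes in ESC, HB, HP and MES were 17.7%, 18.8%, 7.37% and 4.6%. With the same upper quartile scaling the shares highest in MAC were 41.4% of the members and 32.0% of all genes. These percents come from the table that chose the genes and are not independent of that choice. In bulk samples, fewer cells of a type and less RNA per cell cannot be told apart. *Ldha*, *Aldoa* and *Eif5a* have near-identical processed copies elsewhere in the genome, so that their values are uncertain.

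The MEF libraries gave values per gene that took no part in the selection, and 303 of the members were matched by symbol. Levels in these libraries do not tell which promoter was used. Some factors were expressed where they had not been given. *Tal1* (Scl) was at 7.04 FPKM in FGL at day 12, and in SL *Fli1* stood at 46.7 and 34.4 FPKM at day 12 and day 21 and *Gata2* at 68.8 and 62.6 FPKM. In uFIB these genes were at 0.415 FPKM or less, at 3.02 to 3.43 FPKM and at 1.80 to 2.13 FPKM. The FGL library of day 21 went against its label in *Fli1*, which was given but stood at 3.35 FPKM. The values do not tell an introduced gene from the cells' own. In the 8 libraries 84.2% to 92.1% of the members reached 5 FPKM, against 41.0% to 42.5% of all genes, a gap from which nothing is read because members were chosen for their level in the stages. Of the members, 235 reached it in all 8 libraries and 236 in the 6 without FGL, and 11 were under it in every library, with or without FGL. SL and SFGL were each set against the same uFIB libraries, with 1 library per condition and day. In SL, 39 of 285 members were at least 2-fold higher than uFIB on both days (13.7%) against 10.4% of all genes, and 19 were lower (6.67%) against 9.4%. In SFGL, 43 of 282 members were higher (15.2%) against 11.3%, and 31 were lower (11.0%) against 13.3%. A fit of limma to log2(FPKM + 1) with condition and day as terms, over all 8 libraries and added after the data were seen, used the agreement of the days in place of replicates and left 3 residual degrees of freedom. At an adjusted p under 0.05 it called 96 of 292 members higher in SL (32.9%) against 26.8% of all genes, and 74 lower (25.3%) against 27.8%. In SFGL it called 103 members higher (35.3%) against 29.8% and 95 lower (32.5%) against 31.3%. The spread behind these p-values is how far the differences between conditions varied between day 12 and day 21. It includes any true difference in time course between treatments and is not a spread of replicates. The labels do not say whether the libraries of day 12 and day 21 came from separate cultures. The spread between cultures may therefore be missing from it.

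Among the members described above, *Hmha1* was at 0.466 and 1.02 FPKM in uFIB at day 12 and day 21, at 89.7 and 47.7 FPKM in SL and at 90.8 and 52.1 FPKM in SFGL. *Syk* was at 0.457 and 1.18 FPKM in uFIB, at 48.8 and 26.8 FPKM in SL and at 44.0 and 34.6 FPKM in SFGL. *Pik3cd* was at 1.34 and 0.440 FPKM in uFIB and at 27.2 and 17.6 FPKM in SL, so that these 3 genes of blood cells were low in untreated fibroblasts. *Lmo2*, at 57.0 and 150.5 FPKM in SL, was itself given to the cells, so that its level includes the introduced gene. *Nasp*, a histone chaperone, stood at 11.8 and 12.4 FPKM in uFIB against 32.3 and 27.5 FPKM in SL. *Lima1* was lower, at 123 and 78.6 FPKM in uFIB against 34.8 and 34.9 FPKM in SL. On log2(FPKM + 1) SL exceeded uFIB by 5.27 ± 0.71 (SE, limma adjusted p = 0.00283) in *Hmha1* and by 4.38 ± 0.58 (adjusted p = 0.0027) in *Syk*. The difference was 3.64 ± 0.40 (adjusted p = 0.00162) in *Pik3cd*, 1.24 ± 0.11 (adjusted p = 0.00121) in *Nasp* and -1.47 ± 0.18 (adjusted p = 0.00233) in *Lima1*. Along with these values, 5 cardiac and fibroblast genes summed to 4820 and 3113 FPKM in uFIB and to 1439 and 723 FPKM in SL. The sum of 4 granulocyte and mast cell genes was 7.39 and 10.3 FPKM in uFIB and 1768 and 1164 FPKM in SL, that of 4 red cell genes 0.269 and 0.330 FPKM and then 92.4 and 206 FPKM, and that of 4 macrophage genes 58.2 and 21.6 FPKM and then 200 and 93.9 FPKM. Their part in the values of the members was not tested.

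RefSeq start sites were used to describe where promoters of the members lie. A window from 250 bases before to 50 bases after a start was found for 263 members, and 216 had 2 or more windows. In the 163 members with as many windows as TSS rows, the shortest distance between starts of a gene had a median of 1165 bases (quartiles 427.5 and 9744.5), from 9 bases in *Bcor* to 130644 bases in *Clcn5*. In 48 of these members some starts lay within 500 bases of each other, and 12 of the 45 that could be compared changed main TSS. In the 115 others all starts were over 500 bases apart, and 35 of 105 changed. Of all members compared, 37.7% changed. The counts by distance were made in members only, and no relation of distance to change is read from them. The ratio of observed to expected CG dinucleotides was at least 0.6 in 55.4% of the 598 windows of the members, in 50.8% of 16116 windows of genes with 1 TSS row and in 35.8% of all 32851 windows. Windows on both sides of that ratio were found in 118 of the 216 members, among them 39 of the 72 that changed main TSS, likewise counted in members only. TATAAA, the core of the TATA box, occurred on either strand in 7.19% of the member windows, 13.2% of the windows of genes with 1 TSS row and 13.6% of all windows. The GATA site AGATAA occurred in 8.36%, 9.54% and 11.2% of them. GAGGAA was found in 29.3%, 27.1% and 28.3%, in the same order. For the RUNX site TGTGGT the shares were 13.9%, 14.5% and 16.8%. These matches are letters only, and none was tied to a TSS row or to a change. Members were chosen for their level and the other sets were not, so that nothing is read from the gaps between these shares.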

How the data were processed

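The authors aligned RNA-seq reads of the stages and of the MEFs to mm10 (GRCm38) and deposited FPKM values calculated with Cufflinks. The labels also name TopHat for the MEFs, and versions are not given in the sources used here. In the deposited table of stages each TSS has 1 FPKM value per stage with the replicates combined, and in that of the MEFs each gene has 1 FPKM value per library. The tables were normalized separately and were not compared in level. FPKM values do not give depth, and Cufflinks divides reads shared by overlapping transcripts between TSS rows. In the table of stages, 1 other column of values (HE) was not used.

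Samples were grouped from their labels. Rows were summed per gene, and shares and changes of main TSS were computed as defined in the report, with functions tested on simulated data. Stages were pooled and not tested, and the planned use of limma for replicate columns was not carried out. MEF libraries were tested with limma (condition and day, trended variance, genes at 5 FPKM or more in some library, Benjamini-Hochberg adjustment), checked on simulated data. Members, lists and alternatives were chosen with earlier results of these data known. Genes named were the 12 members with the largest move, the 3 with the largest at each of the 4 transitions (sum of at least 10 FPKM), members of the gene lists (all blood regulators, up to 3 of each other list), the 3 with the least move, the 3 with the highest mean sum and 3 on each side of the limit. Some genes that the rule names are not reported here. Others were picked after their values were seen, as were the MEF fold counts.

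Start sites and sequences are those of RefSeq (GRCm38.p6), matched by symbol within 1000 bases of the locus, with up to 90 bases printed that lie outside GENCODE M21 exons. *Lmo2*, *Cnot7*, *Plec*, *Mtus1* and *Wnt5a* had no entry. Coordinates are counted from 1. The alternatives were other limits on FPKM and on the move of a share, other pseudocounts, 1 FPKM added to active rows, active rows only, pairs with values of 0 left out and upper quartile scaling. R 4.3.3, limma 3.58.1, Python 3.11.15, NumPy 2.4.6, pandas 2.3.3 and matplotlib 3.10.9 were used.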

Additional observations from a re-analysis of the deposited data

How the results depend on the processing

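Of 109 counts recomputed under another setting, 88 stayed within 1.5 times the value reported. The number of genes selected, 304, was 543 with a limit of 2 FPKM for an active row and 145 with 10 FPKM. With a gene sum of 10 FPKM, changes of main TSS were counted in 69 members (104 at 5 FPKM), in 23 from ESC to MES, 2 from MES to HB and 23 from HP to MAC. With a move of 40 points they were counted in 15 members from ESC to MES, 2 from MES to HB, 9 from HB to HP and 18 from HP to MAC. With no minimum move the counts were 25 from MES to HB and 33 from HB to HP. Alternatives added after the data were seen gave 66 members without ESC and 35 among the members whose RefSeq starts were all over 500 bases apart, both from fewer genes or stages compared. The limma counts in MEFs, all alternatives to them added after the data were seen, moved by no more than 1.5 times under another pseudocount, scaling, variance model, without a term for day or without FGL. Leaving out each uFIB, SL or SFGL library gave 62 to 92 members higher in SL, 41 to 63 lower, 80 to 96 higher in SFGL and 58 to 84 lower. The lone library of a condition was then assumed to vary like the others. Members lower in SL numbered 47 without uFIB of day 12, 41 without SL of day 12 and 45 without SL of day 21, members higher in SL 62 without SL of day 12, and members lower in SFGL 60 without uFIB of day 12, 63 without uFIB of day 21 and 58 without SFGL of day 21. Of 23 named members that changed, 1 was no longer counted at 40 points, 7 could not be compared at 10 FPKM and 3 where pairs with values of 0 were left out. With 1 FPKM added, or with active rows only, *Kdm2b* changed to another row. No share of a named member turned its direction. Merging starts within 500 bases was not run row by row, because rows have no position. No paired analysis was possible because the stage columns combine the replicates, and leaving out a replicate was not run for the same reason. Depth is unknown for FPKM, so that no counting error is given.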

Other observations

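Of the 28 members that reached 5 FPKM in a single stage, 26 did so in MAC, and the examples given here were chosen after the values were seen. *Pparg*, a nuclear receptor of lipid metabolism, was at 42.6 FPKM on TSS16278 and 18.3 FPKM on TSS16279 in MAC and under 0.3 FPKM on each row before. *Igf1*, a growth factor made by macrophages, was at 116 and 65.6 FPKM on its rows in MAC, and *Hk3*, a hexokinase of myeloid cells, at 139 and 38.1 FPKM. *Mgll*, the lipase of monoacylglycerols, was at 430.5 FPKM on TSS16197 and 14.6 FPKM on TSS16198. Since a member needs 2 rows at 5 FPKM, both rows of these genes had to reach it in MAC.

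Further genes were likewise chosen after the values were seen. *Wnt5a*, a ligand of noncanonical Wnt signalling, was highest in HB at 5.61 and 10.9 FPKM. *Egfl7*, an endothelial matrix protein, had TSS10326 at 7.19, 8.35, 12.8 and 9.41 FPKM from ESC to HP, and TSS10325 at 6.81%, 9.77%, 58.5% and 47.8% of the sum. The main TSS of *Egfl7* changed from TSS10326 in MES to TSS10325 in HB. *Acp5*, an acid phosphatase of osteoclasts and macrophages, was led by TSS20939 at 5.50 FPKM in HP, a row listed at 0 in all other stages, and by TSS20938 at 75.9 FPKM in MAC.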
